A study of Mus musculus with 10 samples.

Results

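The actin and tropomyosin genes of the embryonic mouse heart were chosen by name, as the rows of the deposited table that list *Actc1*, *Acta1*, *Acta2*, *Actg2*, *Actb*, *Actg1*, *Tpm1*, *Tpm2*, *Tpm3* and *Tpm4*. All 10 were found, 6 actins and 4 tropomyosins, among 23195 genes. The table compares whole hearts of male C57BL6/J embryos at embryonic day 13.5, 5 of them wild type and 5 *Nos1ap* null, by stranded sequencing of polyadenylated RNA. The null embryos are homozygous for the tm1d allele, a constitutive deletion of exon 4 of *Nos1ap* made in the germ line with CMV-Cre, and are therefore null in every tissue and not in the heart alone. *Nos1ap* encodes an adaptor of neuronal nitric oxide synthase. The comparison asks which transcripts differ in the embryonic heart when this adaptor is lost. The table holds the authors' mean normalized count of each group, that is read counts divided by a size factor for the depth of each library, and it lists no value of a single library. For genes with group means under 1000, the whole counts of the 5 libraries could be derived from the printed digits of the mean. *Actg2* was the 1 gene of the 10 for which this was possible. The other 9 are given as group means, without a spread between embryos and without a test. Libraries are numbered 1 to 5 within each group by descending size factor, and these numbers are not those of the embryos in the sample descriptions.

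Actin monomers polymerize into the thin filaments of the sarcomere and into the stress fibres and cortex of non-muscle cells. Mammals have a cardiac (*Actc1*) and a skeletal (*Acta1*) sarcomeric actin, a vascular (*Acta2*) and an enteric (*Actg2*) smooth muscle actin, and the cytoplasmic beta (*Actb*) and gamma (*Actg1*) actins. *Acta2* and *Acta1* are known to be transcribed beside *Actc1* in the developing myocardium. Tropomyosins are coiled-coil dimers that lie along the filament. In striated muscle they move with the troponin complex to expose myosin binding sites, and in other cells they set which proteins can bind a filament. Each tropomyosin gene makes several isoforms by alternative promoters and splicing, so that a gene count sums muscle and non-muscle products.

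The actins are nearly the same protein encoded by clearly different bases, which decides how well reads can be assigned to 1 gene. The start of each coding sequence is printed because the isoforms differ most there. The bases are the first 54 of the coding sequence in the GENCODE M21 annotation of GRCm38, each within 1 exon. Capitals mark bases that differ from *Actc1* when the whole coding sequences are aligned codon by codon. All 6 genes lie on the minus strand.
Actc1, chr2:114051978-114052031: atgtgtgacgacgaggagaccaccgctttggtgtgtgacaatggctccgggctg
Acta1, chr8:123893644-123893697: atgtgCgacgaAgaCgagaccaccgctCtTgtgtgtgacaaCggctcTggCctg
Acta2, chr19:34252500-34252553: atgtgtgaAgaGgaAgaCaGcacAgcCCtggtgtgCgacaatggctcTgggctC
Actg2, chr6:83527388-83527441: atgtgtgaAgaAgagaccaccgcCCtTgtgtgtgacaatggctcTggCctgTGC
Actb, chr5:142905633-142905686: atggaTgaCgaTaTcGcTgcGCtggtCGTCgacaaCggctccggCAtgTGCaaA
Actg1, chr11:120348038-120348091: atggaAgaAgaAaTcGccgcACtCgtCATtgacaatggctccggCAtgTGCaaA

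In this stretch 8 bases of *Acta1*, 11 of *Acta2* and 10 of *Actg2* differed from *Actc1*, against 19 of *Actb* and 17 of *Actg1*. Over the whole coding sequence, the cardiac and skeletal actins differed at 4 of 377 residues (98.9% identity) but shared only 86.3% of their bases. The smooth muscle actins *Acta2* and *Actg2* differed at 3 positions (99.2% identity) and shared 84.1% of their bases. The cytoplasmic actins differed from each other at 4 of 375 residues and from *Actc1* at 24 (*Actb*) and 23 (*Actg1*). The tropomyosins were less alike. The 284-residue product of *Tpm1* was identical to that of *Tpm2* at 80.3% of aligned positions and to that of *Tpm3* at 82.1%. It shared 62.4% with the shorter product of *Tpm4*, which has 248 residues.

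At the length of a sequencing read, the members could be told apart from each other. No run of 100 bases was shared between the transcripts of any pair of the 10 genes. Runs of 100 bases shared with other genes were absent for *Actc1*, *Acta1*, *Acta2*, *Actg2*, *Tpm1* and *Tpm2*. They made up 29.9% of the 100-base runs of *Actg1*, 15.8% of *Tpm3*, 7.37% of *Tpm4* and 0.644% of *Actb*, so that the counts of *Actg1*, *Tpm3* and *Tpm4* carry an uncertainty from copies. The copies of *Actg1*, *Tpm3* and *Tpm4* had low counts beside their parents. The same assignment of reads set both counts, so these values do not measure the uncertainty. *Lrrc58*, which shares runs with *Actb*, had mean normalized counts of 1370 in wild type and 1360 in null. *Gm12715*, which shares runs with *Actg1*, had mean normalized counts of 63.1 in wild type and 74.8 in null, and *Tpm3-rs7*, which shares runs with *Tpm3*, had 16.9 and 14.1. *Gm8399*, another copy of *Actg1*, had 14.3 and 11.1, and *Gm7809*, a copy of *Tpm4*, had 3.6 and 1.99. The libraries of the groups overlapped for *Gm12715* and *Tpm3-rs7*, from 42.8 to 74.5 in wild type and 45.2 to 109 in null for the first, and from 11.4 to 23.5 and 11.1 to 17.4 for the other.

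Muscle actin genes are textbook targets of serum response factor (SRF), which binds the CArG box, a pair of cytosines and a pair of guanines around 6 bases of A or T. The 250 bases before the transcription start were searched on both strands, with promoters from RefSeq on GRCm38. Of the 8 genes with an entry, 3 held a CArG box, against 1.62% of 27025 genes with promoter entries. The entries of *Acta2*, *Tpm1*, *Tpm2*, *Tpm3* and *Tpm4* held no exact match in this window. Boxes with a changed base were not searched for. *Actg2* and *Actb* were not matched. The boxes of the 3 genes are shown in capitals with 10 bases on each side, on the minus strand.
Actc1, chr2:114052903-114052932: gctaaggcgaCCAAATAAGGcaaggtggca
Acta1, chr8:123894829-123894858: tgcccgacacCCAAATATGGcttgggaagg
Actg1, chr11:120348566-120348595: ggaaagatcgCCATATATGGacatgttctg
A match of letters is a description and not a measured binding site.

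Before the levels, the genotype and the tissue were checked. *Nos1ap* had normalized counts of 147, 133, 126, 161 and 153 in wild-type libraries 1 to 5 and of 42.3, 42.2, 44.4, 31.1 and 39.2 in the null libraries. Every null library was below every wild-type library (log2 difference −1.83, adjusted p = 6.02e-09, limma with Benjamini-Hochberg adjustment over 10271 genes). In all, 3 genes (*Nos1ap*, *Mt2* and *Gm7694*) were called at a false discovery rate of 5%, which is 0.0292% of the genes tested, and 365 had an unadjusted p under 0.05. The estimated depth was 11328000 to 14023000 read pairs on genes per library. Cardiomyocyte markers were abundant in both groups, with a summed mean of 306397 over 8 genes in wild type and 312185 in null, while the sums of 6 skeletal muscle markers were 78.4 and 78.0. The 5 erythroid markers were all higher in null, with a sum of 68825 against 50151. The summed means in wild type and null were 53363 and 52201 for 6 fibroblast markers, 3473 and 3672 for 4 epicardial markers and 8133 and 8426 for 4 endothelial markers. Their part in the results that follow was not tested.

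*Actc1* was the leading actin of the E13.5 heart, with a level of 60900 normalized counts per kilobase of merged exons in wild type and 62500 in null. Only 7 of the 16928 protein-coding genes with a length had a higher level per kilobase. The cytoplasmic actins and the vascular smooth muscle actin followed as a group, at 6580 (*Actb*), 6150 (*Actg1*) and 5710 (*Acta2*) per kilobase in wild type. *Acta1*, the actin that takes over in adult skeletal muscle, stood at 1400 per kilobase, and *Actg2*, the actin of gut and urogenital smooth muscle, at 56.6. Between the lowest and the highest actin the level thus spanned 3 orders of magnitude. The order was the same in both groups. No spread over embryos is at hand for the neighbours *Actb*, *Actg1* and *Acta2*, and whether their levels differ was not tested.

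**Figure D1:**
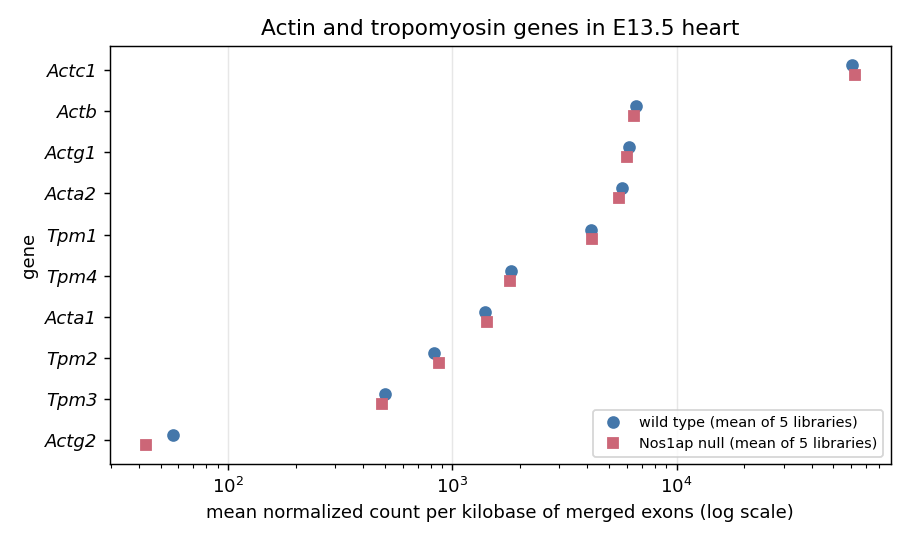
Level of each of the 10 genes as the authors' group mean of normalized counts per kilobase of merged exons, on a log scale, with circles for wild type and squares for *Nos1ap* null. *Actc1* stands alone at 60900 and 62500 per kilobase, *Actg2* is lowest at 56.6 and 42.8, and the symbols of the groups nearly coincide for the other 9 genes.

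As shares of the summed level of the 6 actins per kilobase, the cardiac and skeletal genes together made up 77.1% in wild type and 78.0% in null. *Actc1* alone gave 75.4% and 76.2%, and *Acta1* gave 1.73% and 1.74%. The cytoplasmic pair gave 15.7% and 15.2%, and the smooth muscle pair 7.13% and 6.8%, almost all of it from *Acta2*. *Actc1* was 43.6 times the level of *Acta1* per kilobase in wild type and 43.9 times in null. The ratio of *Actb* to *Actg1*, the actins of the cell cortex and stress fibres, was 1.07 and 1.08. No spread between embryos is at hand for these shares.

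*Tpm1*, the main tropomyosin of the cardiac thin filament, led its family at 4140 normalized counts per kilobase in wild type and 4180 in null. *Tpm4*, whose product belongs mainly to non-muscle filaments, followed at 1820 and 1810. *Tpm2*, best known from slow skeletal and smooth muscle, had 829 and 875 per kilobase, and *Tpm3*, of slow skeletal muscle and the cytoskeleton, had 501 and 487. In shares of the summed tropomyosin level, *Tpm1* made up 56.8% in wild type and 56.9% in null, *Tpm4* 25.0% and 24.6%, *Tpm2* 11.4% and 11.9%, and *Tpm3* 6.87% and 6.63%. The order of *Tpm2* and *Tpm3* depends on the length used. Per kilobase of coding sequence, the wild-type share of *Tpm3* was 9.08% and that of *Tpm2* 7.21%, and that of *Tpm4* was 13.7%. The annotation holds 21 transcripts of *Tpm1* and 16 of *Tpm3*, and the gene-level table does not tell their isoforms apart. *Actc1* stood at 14.7 times the level of *Tpm1* per kilobase of merged exons in wild type, and this ratio was higher by 0.02 on the log2 scale in null. The size of the ratio depends strongly on the length used. Merged exons held 6485 bases for *Tpm1* and 1618 for *Actc1*, while the longest coding sequences held 978 and 1131.

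In the comparison of the genotypes, 9 of the 10 genes had nearly equal group means. Their log2 differences of group means, null minus wild type, ran from −0.04 for *Acta2* to 0.08 for *Tpm2*, with 4 higher and 5 lower in null and a median of −0.01. The median absolute difference was 0.03, and it was also 0.03 over the 2622 abundant protein-coding genes, those at a mean of 1000 or more. Past an absolute log2 difference of 0.1 lay 0 of these 9 genes, where 4.27% of the 2622 lay past it. Among all 10, *Actg2* alone was past 0.25, where 2.20% of 11387 genes lay (those coding for proteins, at a mean of 50 or more), and it alone was past 0.1, where 16.4% of them lay. In whole hearts, fewer cells of a type and less RNA per cell cannot be told apart.

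Among the sarcomeric actins, *Actc1* had mean normalized counts of 98611 in wild type and 101186 in null, a log2 difference of 0.04 with a 95% interval from counting error alone of 0.03 to 0.04. For *Acta1* the means were 2149 and 2188, with a log2 difference of 0.03 and a counting interval from −0.01 to 0.06. Both were slightly higher in null. The counting interval leaves out the spread between embryos, and an interval that leaves out 0 is therefore no test of the genotype.

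Of the remaining abundant actins, all 3 had slightly lower means in null. *Acta2*, in these embryos abundant enough for a mean of 12534 in wild type and 12154 in null, had a log2 difference of −0.04. *Actb* had 17623 and 17391 (log2 difference −0.02) and *Actg1* had 16343 and 15988 (−0.03). Larger absolute differences were found for 30.2%, 65.8% and 45.7% of the 2622 abundant protein-coding genes, in this order.

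Among the tropomyosins, *Tpm2* had the largest difference of the 9 genes, with means of 2411 in wild type and 2544 in null (log2 difference 0.08, counting interval 0.04 to 0.11). Of the abundant protein-coding genes, 8.77% had a larger one. *Tpm1* had 26861 and 27107 (0.01), *Tpm3* 3048 and 2963 (−0.04), and *Tpm4* 4011 and 3980 (−0.01). For scale, the 2180 genes with means of 500 to 1000 and derived libraries had a median standard error of 0.05 for a log2 difference of 5 against 5 libraries, and 95% of them had an absolute difference under 0.10. Counts at these means were settled only where the 5 libraries of a group lay near each other. Genes with a wider spread are missing from this scale, which may therefore be too narrow. All 9 differences lie under 0.10, but whether the more abundant genes vary equally between embryos was not tested.

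**Figure D2:**
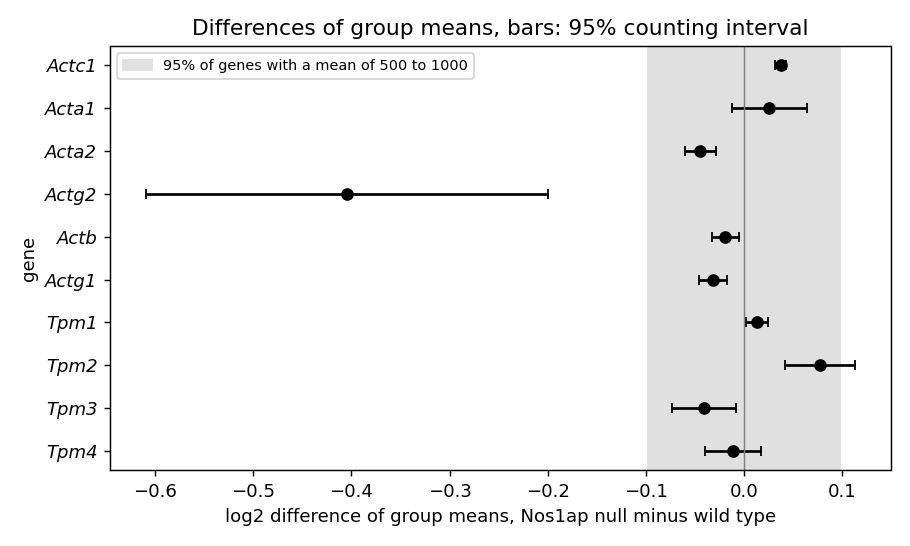
Log2 difference of the group means of each gene, *Nos1ap* null minus wild type, with 95% intervals from counting error alone. The grey band, from −0.10 to 0.10, holds 95% of the 2180 genes with means of 500 to 1000 and derived libraries. Genes with a wide spread between libraries are missing from these. The dots of 9 genes lie inside the band, between −0.04 and 0.08, and *Actg2* lies outside at −0.40.

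*Actg2* had the one large difference, with group means of 88.2 in wild type and 66.6 in null, and it was also the least abundant of the 10. In wild-type libraries 1 to 5 the normalized counts were 95.7, 62.0, 121, 84.6 and 77.6, and in null libraries 1 to 5 they were 73.8, 68.4, 61.5, 88.1 and 41.4. The groups overlapped, with wild-type library 2 below 3 of the null libraries and null library 4 above 3 of the wild-type libraries. The means and SDs were 88.2 ± 22.1 in wild type and 66.6 ± 17.2 in null (SD, n = 5 each). A two-sided exact permutation of the library labels gave p = 0.119 for the difference of means, where 5 against 5 libraries allow no value below 0.00794. In limma, on log2 of the normalized count plus 1, the difference was −0.41 (SE 0.197, 95% interval −0.83 to 0.02) with an unadjusted p = 0.0577 and a Benjamini-Hochberg adjusted p = 0.998. The difference thus did not pass either test, and its interval includes both 0 and a value as low as −0.83 on the log2 scale. It shrank to −0.28 without wild-type library 3 and to −0.25 without null library 5.

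Smooth muscle markers were read beside this gene. Of 5 such markers 4 had lower means in null and 1 higher, and their summed mean was 8969 in wild type and 8887 in null. *Tagln* (2770 and 2637), *Cnn1* (2857 and 2855) and *Smtn* (1745 and 1744), which are also transcribed in embryonic heart muscle, had nearly equal means. *Synpo2*, the 1 marker higher in null, had 1513 and 1607 (log2 difference 0.09). *Myh11*, the smooth muscle myosin heavy chain, stood apart at 84.0 in wild type and 44.1 in null. Its value in wild-type library 3 was 206, against 32.9 to 69.1 in the other wild-type libraries and 28.3 to 64.8 in the null libraries. Without that library its wild-type mean was 53.6, and the limma log2 difference moved from −0.70 to −0.30. Wild-type library 3 was also the highest for *Actg2*. Of the 6 skeletal muscle markers, 4 were highest in this library. They were *Myod1* (13.2, at most 1.8 in the others), *Myog* (18.3, at most 10.7), *Chrng* (19.3, at most 11.7) and *Pax7* (2.04, at most 1.07). *Actn3*, the most abundant of the 6, was 63.1 there and 87.0 in wild-type library 1, and *Myf6* was at 0 there. The deviations of *Actn3* had a Pearson correlation of 0.517 with those of *Actg2*. The part of either cell type in the *Actg2* values was not tested.

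**Figure D3:**
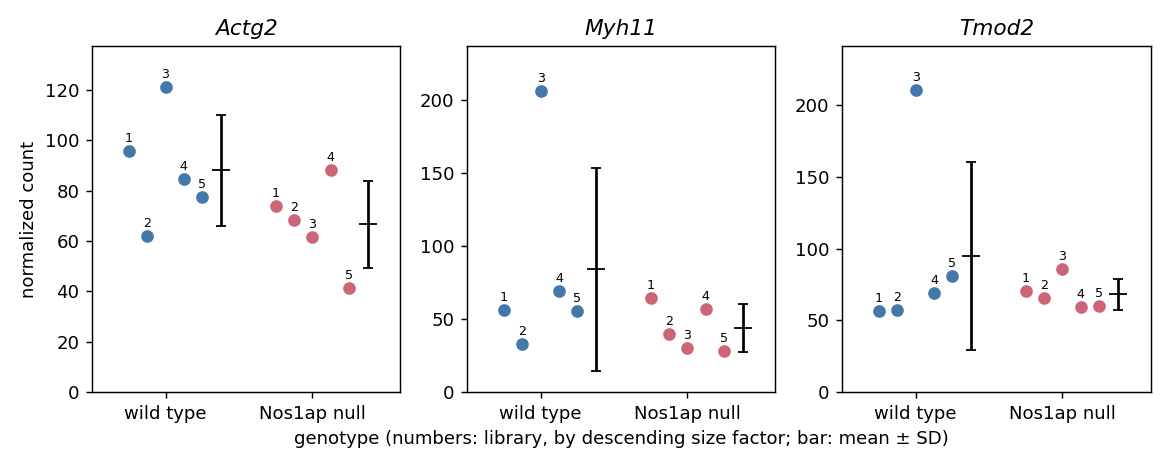
Normalized counts of *Actg2*, *Myh11* and *Tmod2* in the 5 wild-type and 5 *Nos1ap* null libraries, numbered by descending size factor, with the mean ± SD of each group as a bar. Wild-type library 3 is the highest of the 10 in all 3 panels, at 121, 206 and 210, and the groups overlap in each.

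Over the 10 libraries, the genes whose deviations from the group means were most like those of *Actg2* were *Lrrc16a*, *Adam12* and *Tro*, out of 8358 protein-coding genes searched. Their Pearson correlations were 0.967, 0.953 and 0.934 and their Spearman correlations 0.952, 0.903 and 0.842. *Lrrc16a* encodes a linker that binds the actin capping protein, and *Adam12* a membrane metalloprotease. Without null library 5 and wild-type library 2, whose *Actg2* deviations from their group means on the log2 scale were farthest from the median deviation, the Pearson correlations were 0.925, 0.891 and 0.783. Without wild-type library 3 alone they were 0.96, 0.941 and 0.932. *Myh11* deviated in the same direction as *Actg2*, with a Pearson correlation of 0.828 and a Spearman correlation of 0.915, and its Pearson correlation was 0.81 without wild-type library 3. *Myh11* was read from the list of smooth muscle markers. The correlations of *Lrrc16a*, *Adam12* and *Tro* are the highest of many over the same libraries, and all are given as a description. The group means of the 3 genes themselves were close, at 130 and 137 for *Lrrc16a*, 231 and 223 for *Adam12* and 713 and 721 for *Tro*.

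Proteins that build, cap and turn over actin filaments were compared next, as 5 lists of 59 genes. Of these, 56 had a mean of at least 50, with 30 higher and 26 lower in null and a median log2 difference of 0.01. Library values were at hand for 20, and limma called 0 of them, with its trend or its voom form, at a false discovery rate of 5%, against 0.0292% of all genes tested. An unadjusted p under 0.05 was found for 4 of the 20 and for 365 of the 10271 genes tested. None of the 4 fell under an adjusted p of 0.998 (limma, Benjamini-Hochberg).

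In the list of thin filament length and capping, 13 of 16 genes had a mean of at least 50 and their median log2 difference of group means was 0.0027. The most abundant was *Tmod1*, the cap of the pointed end in heart muscle, with 4196 in wild type and 4282 in null. *Lmod2*, a leiomodin that lengthens thin filaments, had the highest difference at 0.13, with 1213 and 1329. *Tmod2*, the tropomodulin of neurons, had the lowest at −0.48, with 94.6 and 68.0. Its value of 210 in wild-type library 3 stood against 56.5 to 80.7 in the other wild-type libraries and 59.1 to 85.7 in null. Without that library its limma difference was 0.05 instead of −0.29. *Lmod1*, the leiomodin of smooth muscle, was the other gene past 0.25 among those of the lists with a mean of at least 50, with 69.6 ± 9.31 in wild type and 58.3 ± 5.71 in null (SD, n = 5 each), and its libraries overlapped.

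In the list of turnover and monomer binding, the median over 16 genes was −0.01. *Dstn*, which severs filaments, was the most abundant at 9354 in wild type and 9431 in null, and *Gsn*, the severing protein gelsolin, had the highest difference at 0.05. *Limk1*, the kinase that switches off cofilin, had the lowest. Its libraries ranged from 363 to 486 in wild type, with a median of 415, and from 330 to 402 in null, with a median of 368. They overlapped, and limma gave a log2 difference of −0.18 (95% interval −0.32 to −0.04, unadjusted p = 0.0168, Benjamini-Hochberg adjusted p = 0.998). Without wild-type library 3 the difference was −0.12.

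In the list of nucleation factors, 9 of 15 genes were higher in null and 6 lower, with a median of 0.02. *Actr3*, of the Arp2/3 complex, which starts branched filaments, was the most abundant at 4147 and 4273, and *Arpc5l*, of the same complex, was lowest at −0.07. Only 7 of the 15 genes were tested with limma. They were the formins *Diaph1*, *Diaph2*, *Diaph3* and *Fhod1*, beside *Cobl*, *Arpc3* and *Arpc5l*, so that most of the Arp2/3 complex had no test. The 3 tested genes with an unadjusted p under 0.05 were all formins, which start and extend straight filaments. *Diaph3* had the highest difference at 0.12, with 460 to 516 in wild type and 487 to 561 in null. *Fhod1* had 364 to 405 in wild type and 398 to 432 in null, a limma difference of 0.11. *Diaph1* had 599, 634, 625, 636 and 628 in wild type and 655, 672, 636, 674 and 696 in null, a limma difference of 0.09 (95% interval 0.01 to 0.18). Its groups did not overlap, which held for 0.789% of the genes tested, but its lowest null and highest wild-type libraries were both at 636 after rounding. *Diaph1*, *Fhod1* and *Lmod1* were named after their values were seen, and all 3 formins had an adjusted p of 0.998 (limma, Benjamini-Hochberg). The other formins were *Daam1* at 0.05, *Diaph2* at −0.03 and *Fhod3*, a heart muscle formin placed in the list of thin filament length and capping, at −0.02 with 1706 and 1684. The formins were set side by side after their values were seen.

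**Figure D4:**
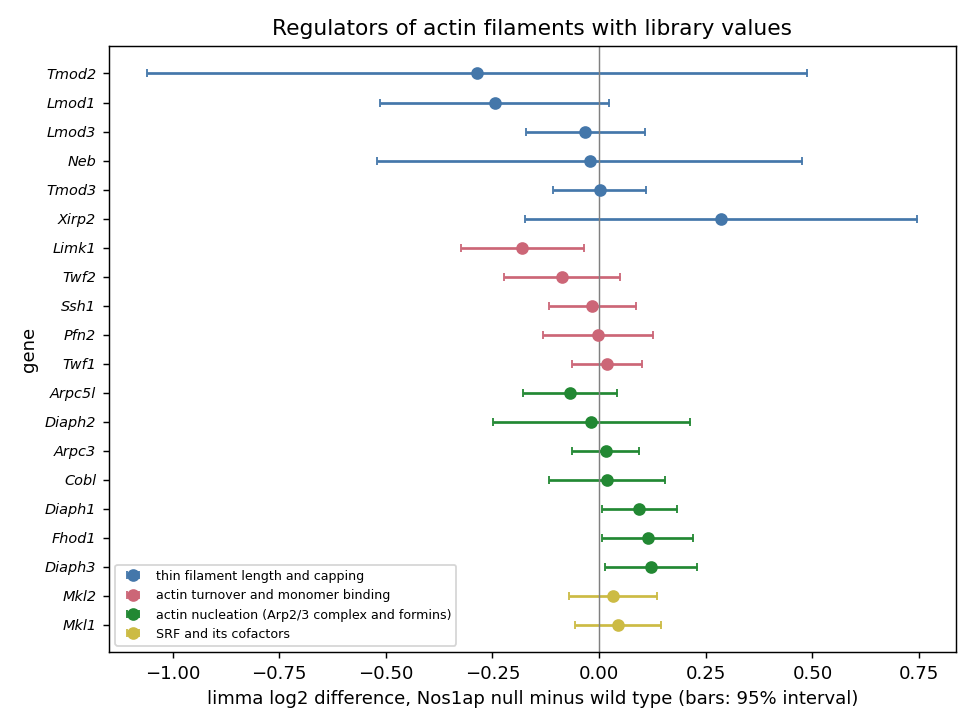
Limma log2 differences, *Nos1ap* null minus wild type, with 95% intervals, of the 20 actin regulators tested with limma, coloured by list. The intervals of *Limk1*, *Diaph1*, *Diaph3* and *Fhod1* leave out 0 before adjustment, and *Tmod2* has the widest interval, from −1.06 to 0.49.

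The cross-linkers, which join filaments into bundles and networks, had a median of −0.01 over 8 genes, all without library values. *Flna*, filamin A, was the most abundant at 7798 in wild type and 7869 in null. *Lasp1*, a binder at filament attachment sites, was lowest at −0.12, with 1322 and 1216, and *Pls3*, a bundling plastin, was highest at 0.08. SRF and its cofactors, which switch on the muscle actin genes, were at 0.01 to 0.06 in all 4 genes. *Srf* had 2020 in wild type and 2106 in null, and *Myocd*, the cofactor of heart and smooth muscle, had 649 and 653. The cofactors *Mkl1* and *Mkl2* had library values, and their limma differences of 0.05 (95% interval −0.06 to 0.15) and 0.03 (−0.07 to 0.14) included 0.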

How the data were processed

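Total RNA of E13.5 hearts was made into poly-A selected stranded libraries. Per the labels and methods, reads were trimmed by the authors (Trimmomatic 0.36), mapped to GRCm38 (STAR) and estimated per gene (RSEM 1.2.31). The deposited values, made by the authors with DESeq 1.24.0, are a signal (normalized counts averaged per group) for 23195 genes. The deposited fold changes, p-values and adjusted p-values of the authors' own comparison were not used.

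Each mean is the average of 5 whole counts divided by size factors. Counts were recovered by lattice search for 98.7% of wild-type and 99.0% of null means under 1000, and the search was tested on simulated data. The test, on protein-coding genes at a mean of 10 or more, was limma (version 3.58.1, R 4.3.3) on log2(normalized count + 1) with trended, robust moderation and Benjamini-Hochberg adjustment over 10271 genes. At means of 200 or more, a set of counts was settled only where it lay near equal levels in the 5 libraries. Genes without a settled set of counts were left out of results on libraries, which drops genes with a wide spread at these means. Levels were divided by merged exon length (GENCODE M21, GRCm38). Depth was estimated from size factors and summed means.

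The named genes are the 10 members, *Nos1ap*, the marker lists, the most abundant and most changed gene of each regulator list, the 3 genes most like *Actg2*, and genes sharing 100-base runs with a member. *Lmod1*, *Mkl1*, *Mkl2*, *Pfn2*, *Xirp2* and the formins other than *Diaph3* were named outside this rule, after their values were seen. Genes, lists and tests were chosen with earlier results of these data known. That the embryos are separate animals is taken from the authors' methods, which count males of each genotype. The labels number replicates only. The alternatives were other pseudocounts, filters, gene types, lengths, scalings, voom weights and leaving out each library.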

Additional observations from a re-analysis of the deposited data

Results flagged for a closer look

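In 43 genes with library values (members, relatives, regulators, markers and the genes most like *Actg2*), each group of 5 libraries was examined for a single library far from the others, by the gap to its nearest neighbour over the range of the group. Of 86 such groups 11 held one. The cutoff of 0.71 for this ratio flags about 1 in 20 groups of normally distributed values. These groups share their libraries and some hold only a few reads, so the count cannot be set against that rate. All 11 were high values, and 6 of them came from wild-type library 3. In that library *Tmod2* had a normalized count of 210 against a median of 69.1 in its group, *Myh11* had 206 against 56.5, and *Pfn2*, a profilin that loads actin monomers, had 632 against 518. The skeletal muscle regulators *Myod1*, *Myog* and *Pax7* had 13.2, 18.3 and 2.04 there, against medians of 0, 4.13 and 0. *Xirp2*, an actin binder of the intercalated disc, had 29.4 in null library 5 against a median of 26.8, and *Klf1*, an erythroid transcription factor, had 92.5 in null library 2 against 21.8. The other 3 were near the floor of counting, where a group with a median of 0 held 1 or 2 reads in a single library. They were *Myf6*, with 1.03 in wild-type library 5 and 2.01 in null library 2, and *Pax7*, with 1.07 in null library 4. The values of *Actg2* itself held no such library.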

How the results depend on the processing

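The log2 differences of the group means of the 10 genes kept their direction with a pseudocount of 1 and after centring on the median of the protein-coding genes, a shift of 0.0015. Neither step could have changed a direction, since a pseudocount keeps the sign and the shift is smaller than every difference. The count of genes past 0.25 was 1, and it was 0 where genes with a mean of at least 1000 were considered, since *Actg2* then drops out. Shares within a family moved with the length used, for *Actc1* from 75.4% to 66.8% with coding length and for *Tpm4* from 25.0% to 13.7%. For *Actg2*, the limma difference of −0.41 lay between −0.52 and −0.25 with each library left out (unadjusted p from 0.0136 to 0.151). Its adjusted p was 0.849 to 1.0 over all 15 alternatives (limma, Benjamini-Hochberg). The count of genes called by limma was 3 to 4 with each library left out and 3 under the other settings, and 0 actin regulators were called under every setting. No paired analysis was possible because the derived libraries carry none of the replicate numbers of the labels. For the 9 genes with means over 1000 no spread between embryos is at hand, and no difference between their means was tested. The depth of *Actg2*, 38 to 119 read pairs per library, limits its precision.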

Other observations

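The 10 genes together held 1.51% of the summed normalized counts of the table in wild type and 1.5% in null, of which *Actc1* alone held 0.808% and 0.82%. The ratio of *Acta2* to *Actg2*, the smooth muscle actins, was 101 per kilobase in wild type and 129 in null, and this ratio rests on the group means of *Actg2* described above. The ratio of *Actc1* to *Acta2* per kilobase was 10.7 in wild type and 11.3 in null.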
